A study of Mus musculus with 11 samples.

Results

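The cell cycle genes described here are 43 of the 24411 gene symbols counted in mouse microglia-like cells. They were taken by symbol from a list of names: 28 encode proteins of mitosis (cyclins and kinases, the spindle checkpoint, the spindle and chromosome structure) and 15 encode proteins of DNA replication. The study transplanted blood-forming cells into mice in competition and sorted myeloid cells from their brains, and polyadenylated RNA was sequenced from 11 libraries. Routes of transplantation were intravenous (IV), intracerebroventricular (ICV) and lumbar intrathecal (ITL). For each of these 3 routes there was 1 library each of CD45.1 µ, of CD45.1 TAµ and of CD45.2 µ cells, named by CD45 allele and sorted population, which makes 9 libraries. Beyond these stand a library of ICV CD45.2 cells with the label PBS, and a control library, CTR µ, whose allele is not given. The labels expand neither TAµ nor PBS. They do not say which allele marks donor or host, how many animals went into a library, or any age, sex or strain, and the ICV libraries carry no note of whether cells were also given intravenously.

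A dividing cell copies its DNA in S phase and parts the copies in mitosis. Genes of S phase are switched on by E2F factors when cyclin-dependent kinases inactivate the RB protein, and genes of mitosis are switched on later by the MuvB complex with B-MYB and FOXM1. Microglia of the adult brain divide seldom, while blood progenitors and the macrophages they give rise to can expand after engraftment. In a bulk library, fewer dividing cells and less RNA per cell cannot be told apart.

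The gene groups differ in some of the sequence words searched in their promoters. The words are shown to describe the groups, and a link to their levels was not tested. RefSeq promoters (build GRCm38.p6, 250 bases before to 50 bases after the start) were found for 35 of the 43 genes, 23 of mitosis and 12 of replication. The CHR word TTTGAA, which MuvB binds, occurred on either strand in 17 of the 23 mitosis promoters (73.9%), in 1 of the 12 replication promoters (8.33%) and in 20.2% of all 27025 promoters. One set of 4 E2F words was searched on both strands. It held TTCCCGC first, then the word TTGGCGC, which on the opposite strand can overlap with the word TTCGCGC, and last the word TTGCCGC. Any of these occurred in 8 of 12 replication promoters (66.7%), 5 of 23 mitosis promoters (21.7%) and 10.9% of all. CCAAT, the word of NF-Y, was in 87.0% of mitosis promoters, 75% of replication promoters and 41.1% of all. A match describes letters and not a bound site, and the words were chosen after levels had been seen. The 250 bases before the start follow for the 2 mitosis genes and the 2 replication licensing genes with the highest mean level, 5′ to 3′ on the gene's strand, with these words in capitals.

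Mki67: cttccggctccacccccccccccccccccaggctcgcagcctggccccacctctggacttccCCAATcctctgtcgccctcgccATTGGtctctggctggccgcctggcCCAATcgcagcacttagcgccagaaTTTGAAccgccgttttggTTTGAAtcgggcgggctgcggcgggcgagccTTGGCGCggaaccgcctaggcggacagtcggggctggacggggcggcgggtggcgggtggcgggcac
Top2a: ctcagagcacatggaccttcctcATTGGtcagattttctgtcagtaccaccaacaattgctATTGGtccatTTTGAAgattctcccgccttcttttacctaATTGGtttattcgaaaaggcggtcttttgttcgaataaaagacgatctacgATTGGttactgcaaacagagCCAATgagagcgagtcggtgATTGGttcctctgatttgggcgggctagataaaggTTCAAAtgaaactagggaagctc
Mcm3: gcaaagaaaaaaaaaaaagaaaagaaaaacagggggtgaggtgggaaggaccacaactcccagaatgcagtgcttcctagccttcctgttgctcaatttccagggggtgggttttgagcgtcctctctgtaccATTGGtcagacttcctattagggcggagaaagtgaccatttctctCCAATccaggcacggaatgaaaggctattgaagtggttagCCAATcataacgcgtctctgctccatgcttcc
Mcm6: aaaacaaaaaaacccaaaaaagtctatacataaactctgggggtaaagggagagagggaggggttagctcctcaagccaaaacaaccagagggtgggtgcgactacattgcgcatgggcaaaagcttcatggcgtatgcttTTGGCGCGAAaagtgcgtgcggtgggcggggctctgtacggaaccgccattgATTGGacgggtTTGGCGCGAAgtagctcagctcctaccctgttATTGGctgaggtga

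All 4 genes lie on the minus strand: Mki67 at chr7:135716380-135716629, Top2a at chr11:99024190-99024439, Mcm3 at chr1:20820313-20820562 and Mcm6 at chr1:128359706-128359955. Mki67 and Top2a each have 2 CHR words before the start. Mcm6 has 4 E2F words there and no CHR word. Mcm3 has neither before its start, and its 3 E2F words lie after it.

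Libraries held between 6090589 counts (ITL CD45.2 µ) and 21282823 counts (ICV CD45.2 µ), and levels are given as CPM, counts scaled by the library total to a common sum. For a gene with no count the upper limit was 0.141 CPM in the deepest library and 0.493 CPM in the shallowest. Of the 43 genes, 9 had no count in IV CD45.2 µ and 11 had none in ICV CD45.1 µ, against 0 to 2 in the other 9 libraries. Those were also the libraries with the fewest detected genes (10477 and 11456, against 12192 to 15492). Levels of single genes were uneven there: IV CD45.2 µ had 0 counts for Cdca8, Kif20a and Prc1 but the highest Cenpf level of all. The microglial markers were present throughout, with a summed level of 10 markers of 12492 to 23638 CPM in the 9 libraries and 34149 CPM in CTR. Each combination has 1 library, so the spread below is between routes or populations and not between animals.

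**Figure D1:**
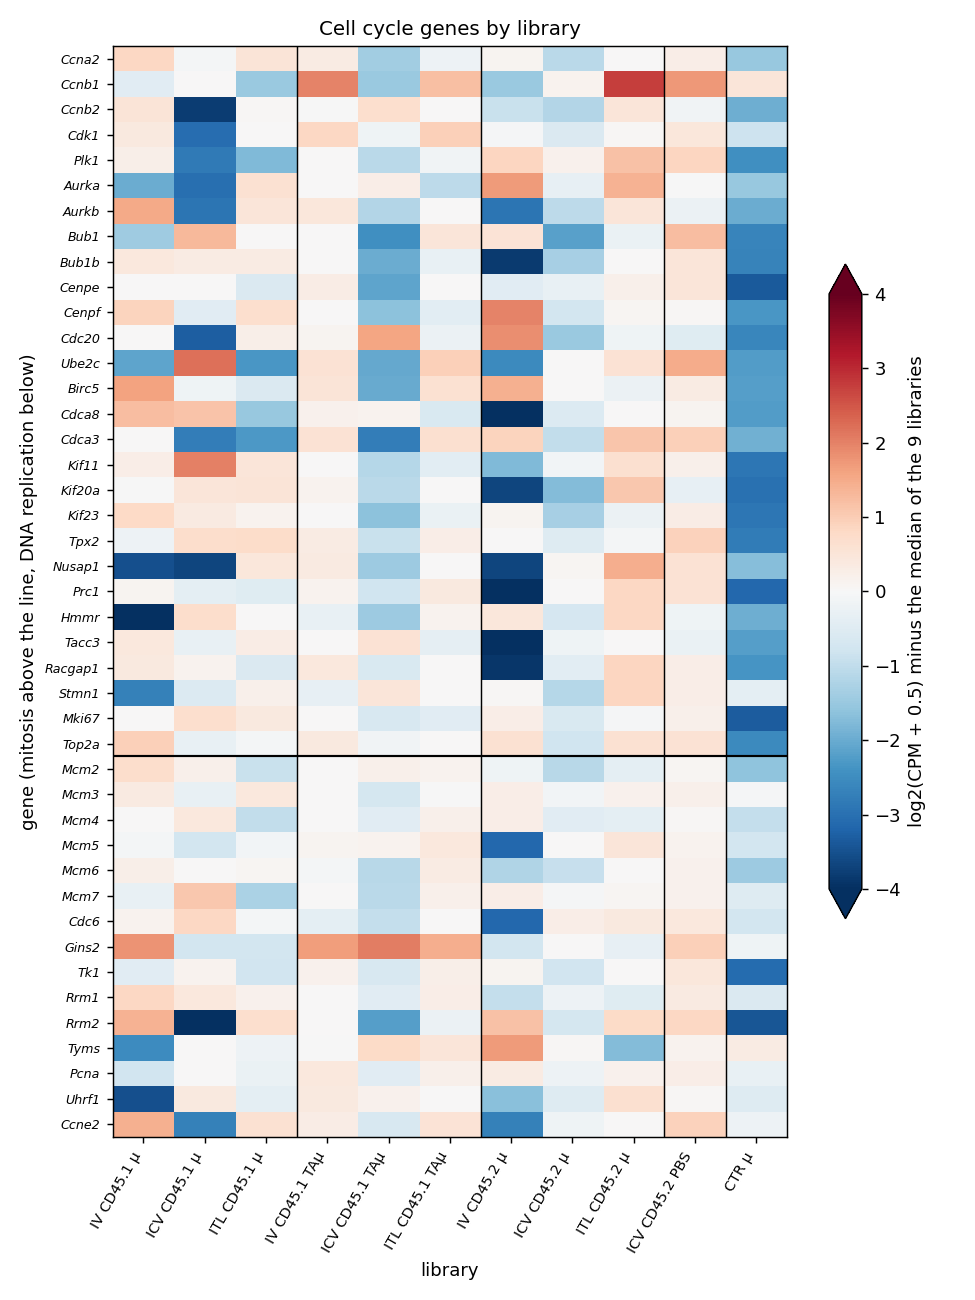
Each row is 1 of the 43 genes and each column 1 of the 11 libraries. Colour gives log2(CPM + 0.5) minus the median of the 9 libraries. The CTR column is blue for most mitosis genes and paler for most replication genes, and the dark blue cells of ICV CD45.1 µ and of IV CD45.2 µ include genes with no count.

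The control library was set beside the 9 libraries to compare cells from transplanted brains with control cells. Mitosis genes were low in CTR, and most replication genes were nearer to the other libraries. Summed over the 28 mitosis genes, CTR had 57.1 CPM against 226 to 468 CPM in the 9 libraries. Over the 15 replication genes the sums were 196 CPM and 215 to 348 CPM. With 1 CTR library there is no test.

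Below the lowest of the 9 libraries lay 13 of the 43 genes, where 6.31% of 14766 genes did so: 10 of 28 mitosis genes and 3 of 15 replication genes. No cell cycle gene lay above their range. At least 2-fold under the mean of the 9 were 26 mitosis genes and 5 replication genes, where 25.7% of all genes were. The median difference from that mean was -2.42 on the log2 scale for mitosis genes, -0.65 for replication genes and -0.22 for all genes (0.5 CPM added). The gap between the groups was not tested. Low counts in ICV CD45.1 µ and in IV CD45.2 µ widen the range: leaving them out put 21 mitosis and 6 replication genes below it (11.4% of all genes), and leaving out IV CD45.2 µ alone put 20 of the 43 there.

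Both genes of mitotic chromosome structure lay below the range. Mki67, whose protein coats mitotic chromosomes and marks cycling cells, had 10 CPM in CTR. It had 108, 168 and 138 CPM in CD45.1 µ by IV, ICV and ITL, 106, 68.2 and 77.3 CPM in CD45.1 TAµ, and 128, 69.3 and 103 CPM in CD45.2 µ. No library of the 9 came near CTR, and their mean was 10.7-fold higher (95% interval 9.03 to 12.8, exact and for counting error only, as are the intervals that follow). Top2a, the topoisomerase that untangles sister chromatids, had 6.58 CPM in CTR. By the same order of routes it had 80.6, 33.2 and 39.0 CPM in CD45.1 µ, 53.6, 37.5 and 41.1 CPM in CD45.1 TAµ, and 63.4, 23.4 and 63.5 CPM in CD45.2 µ. Again all 9 were above, by 7.35-fold at the mean (5.95 to 9.19).

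Among mitotic cyclins and kinases, Ccna2, the cyclin A2 gene, was the only 1 of 7 below the range, at 4.06 CPM in CTR against 4.51 to 22.8 CPM (median 12.5). The cyclin B1 gene Ccnb1 was inside it, with 1.45 CPM in CTR and more in just 3 of the 9 libraries. Its values were 0.528, 0.898 and 0 CPM in CD45.1 µ, 5.00, 0 and 2.73 CPM in CD45.1 TAµ, and 0, 1.03 and 9.03 CPM in CD45.2 µ. These levels rest on few reads and scatter from 0 upward within every population. Its partner kinase Cdk1 had 1.84 CPM in CTR and was higher in 8 of 9 libraries, at 4.99, 0 and 3.65 CPM in CD45.1 µ, 6.89, 3.18 and 7.57 CPM in CD45.1 TAµ, and 3.48, 2.30 and 3.78 CPM in CD45.2 µ. Ccnb2, a second B-type cyclin, had 1.30 CPM against 0 to 10.5 CPM, and the spindle pole kinase gene Aurka 0.918 CPM against 0 to 12.9 CPM. The kinase gene Plk1 had 2 counts in CTR, so the 20.3-fold higher mean of the others has an interval of 5.62 to 167.

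All 9 genes of the spindle checkpoint, the kinetochore and the mitotic ubiquitin ligase were at least 2-fold lower in CTR, with 4 below the range. The kinetochore motor gene Cenpe had 0.918 CPM against 2.84 to 17.5 CPM, and the kinetochore gene Cenpf 2.91 CPM against 5.02 to 68.4 CPM. Bub1, a checkpoint kinase, had 4 counts (0.306 CPM) against 0.418 to 11.7 CPM. Bub1b, which encodes the checkpoint protein BUBR1, was inside the range at 1.68 CPM, since IV CD45.2 µ had 0.464 CPM and the other 8 at least 3.01 CPM. Of the 10 spindle and cytokinesis genes, the motor genes Kif11 (1.53 CPM against 3.94 to 60.5) and Kif23 (1.61 against 4.60 to 27.0) and the spindle assembly gene Tpx2 (0.612 against 3.68 to 12.3) were below the range. Racgap1, which acts with Kif23 at the cleavage furrow, was above CTR (2.91 CPM) in 8 of 9 libraries. Stmn1, a tubulin-binding protein that other cells also use, was the exception of this class at 9.26 CPM against a mean of 11.6 CPM.

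Replication genes split. Tk1, the thymidine kinase of dividing cells, had 0.995 CPM in CTR against 6.91 to 14.4 CPM, 10.8-fold under the mean of the 9 (6.32 to 20.3). The ribonucleotide reductase subunit gene Rrm2 had 6 counts (0.459 CPM) and was higher in 8 of 9 libraries, up to 26.7 CPM, while its partner Rrm1 had 17.8 CPM inside a range of 13.5 to 47.9 CPM. Of the MCM helicase genes, which license replication origins, Mcm2 (5.20 CPM against 7.66 to 27.8) and Mcm6 were below the range. Mcm6 had 11.7 CPM in CTR, 38.8, 32.8 and 34.4 CPM in CD45.1 µ, 31.2, 15 and 41.5 CPM in CD45.1 TAµ, and 13.9, 17 and 32.7 CPM in CD45.2 µ. Their partner Mcm3 was at 48.4 CPM in CTR, in the middle of the 9: 65.1, 40.3 and 67.0 CPM, then 50.1, 30.4 and 49.8 CPM, then 59.7, 46.9 and 56.2 CPM in the same order. Mcm3 thus differed from the mean by 1.07-fold (0.988 to 1.16).

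Pcna, the sliding clamp of replication and repair, had 60.5 CPM in CTR. In the 9 libraries it had 43.5, 75.1 and 63.0 CPM in CD45.1 µ, 99.7, 54.3 and 86.6 CPM in CD45.1 TAµ, and 95.4, 65.5 and 85.0 CPM in CD45.2 µ, a range that holds CTR. Mcm4 (13.2 CPM against 13 to 35.3) and the cyclin E2 gene Ccne2 (2.37 CPM against 0 to 8.39) were inside it too. Tyms, the thymidylate synthase gene, was the single member above the mean of the 9 (5.66 CPM against 5.31).

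**Figure D2:**
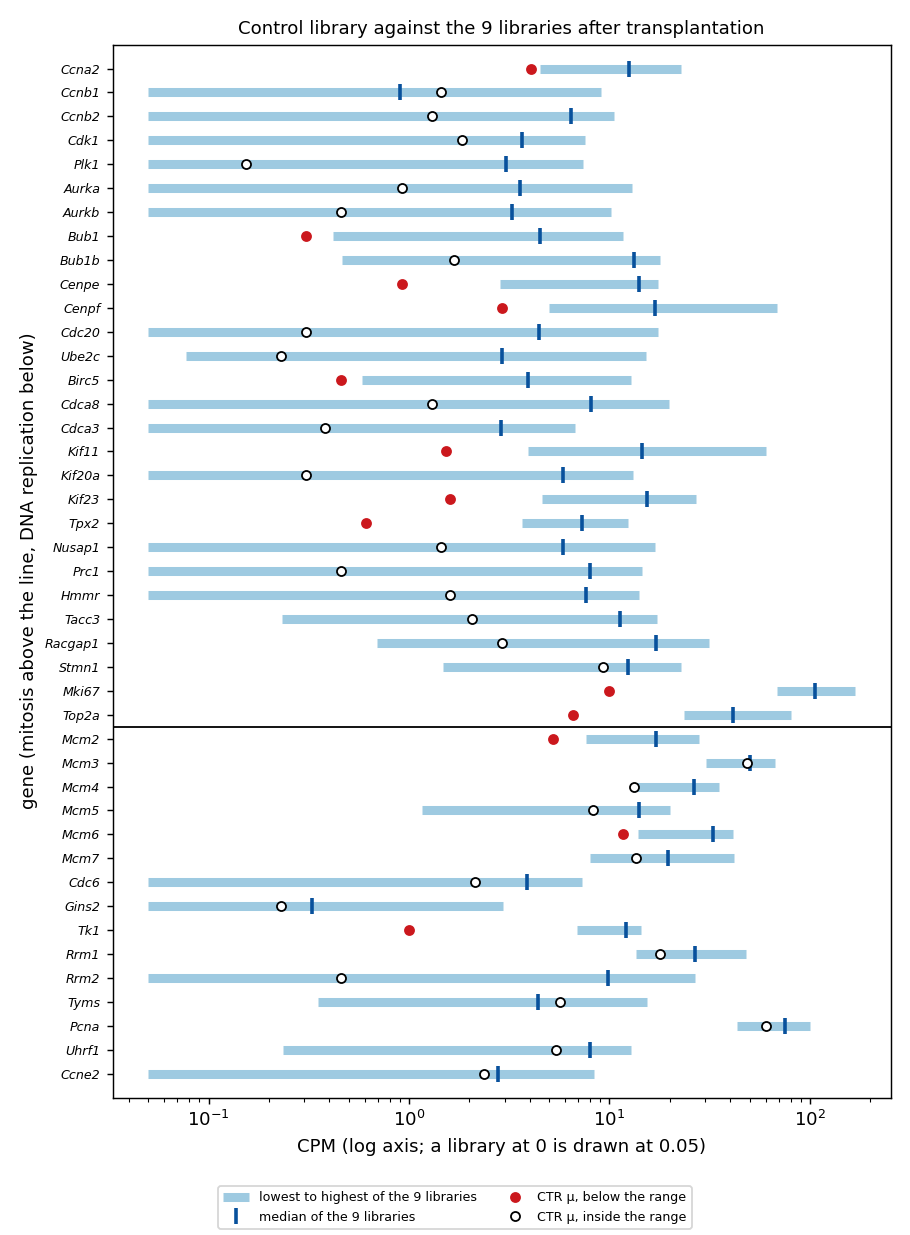
For each gene the bar runs from the lowest to the highest of the 9 libraries in CPM on a log axis, the tick is their median, and the circle is CTR µ. The 13 red circles lie left of their bars, 10 of them among mitosis genes.

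Markers of other cells moved with this comparison. The 8 markers of macrophages of blood origin summed to 1041 CPM in CTR against 6174 to 32780 CPM, with 6 of 8 below the range and none at 0, while 8 of 10 microglial markers were above it. The 10 markers of progenitors and primary granules summed to 165 CPM in CTR, inside 43.1 to 193 CPM, but 149 CPM of this came from Cd34, which endothelial cells also express. Of these 10 markers 8 were under the mean of the 9 and 4 at least 2-fold, beside 9535 and 3797 of all 14766 genes. Just 1 was under the median of the 9, beside 7141 of all genes. That marker was the stem cell factor receptor gene Kit, with no count in CTR and 0.493 to 6.86 CPM in the 9. Of 9 oligodendrocyte lineage markers 8 were at least 2-fold under the mean of the 9 (median log2 difference -1.79). Under the median of the 9 were 7 of them, and their sum was 109 CPM in CTR, inside 97.4 to 1065 CPM. Of 10 T and NK cell markers 8 were at least 2-fold under the mean of the 9, but only 3 were under the median. In CTR this list summed to 5.13 CPM, against 0 to 22.4 CPM, and 7 of the 10 had no count. The 9 neutrophil markers summed to 1732 CPM in CTR and from 2.86 to 13861 CPM in the 9 libraries. Xist, made in female cells, had no count in CTR and between 12.3 and 6399 CPM in each of the 9. Ddx3y, a gene of the Y chromosome, had 172 CPM in CTR. Among the 9, Xist was lowest in IV CD45.1 TAµ (12.3 CPM, with Ddx3y at 289 CPM) and ITL CD45.1 TAµ (51.2 CPM, with Ddx3y at 125 CPM). Mitosis genes summed to 398 CPM and 324 CPM in these TAµ libraries and to 57.1 CPM in CTR. CTR also differs from them in population and route, so sex cannot be told apart from these. The part of sex and of these other cell types in the gap was not tested.

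**Figure D3:**
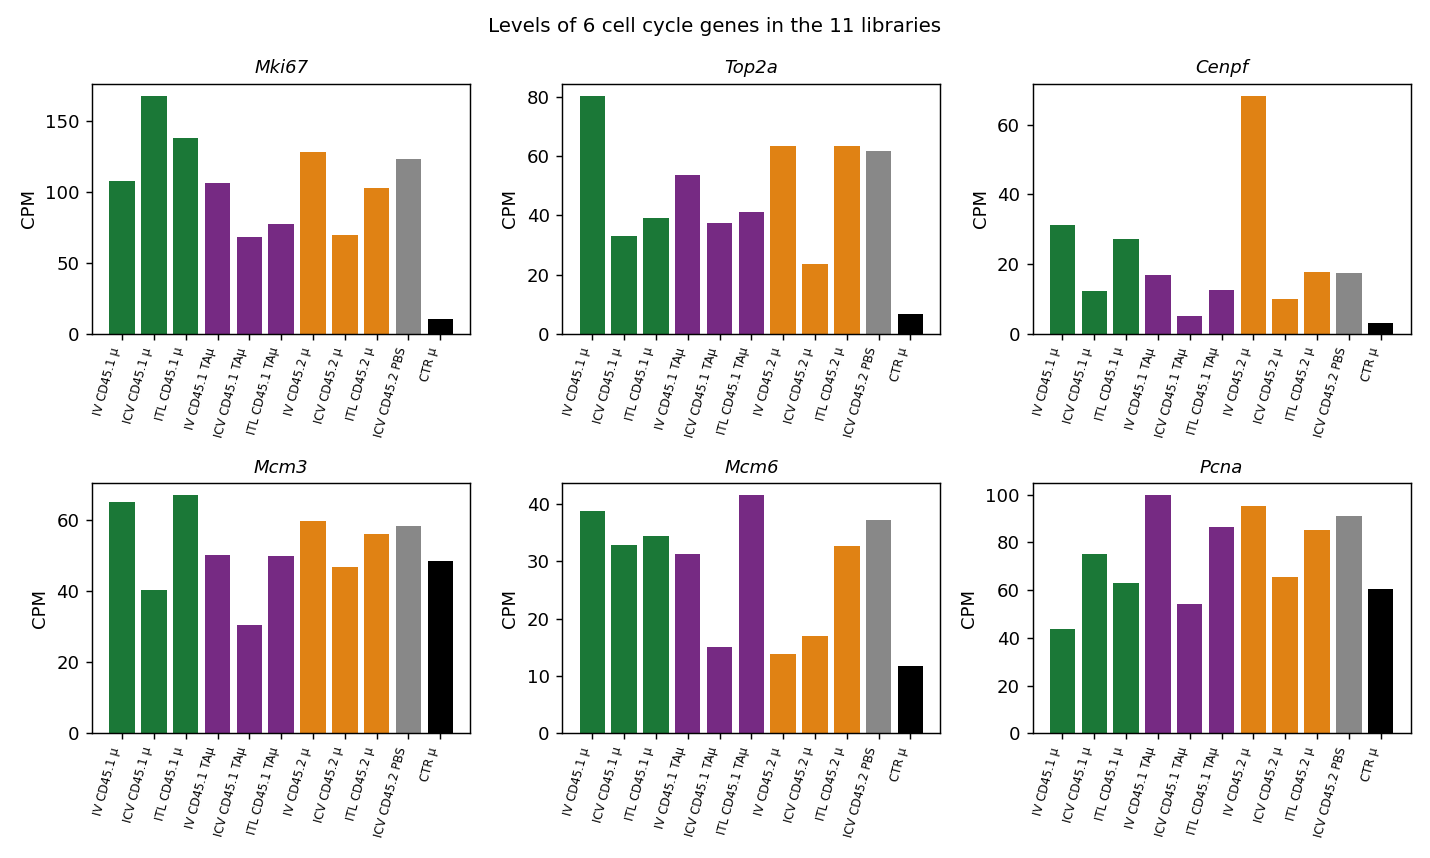
Bars give CPM in each of the 11 libraries for 3 mitosis genes (top) and 3 replication genes (bottom). Colours mark CD45.1 µ (green), CD45.1 TAµ (purple), CD45.2 µ (orange), PBS (grey) and CTR (black). CTR is lowest for Mki67, Top2a, Cenpf and Mcm6 and lies among the others for Mcm3 and Pcna.

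Between the sorted populations no cell cycle gene passed. The additive model of route and population, fitted across 13339 genes with edgeR's quasi-likelihood test and Benjamini-Hochberg adjustment, called 0 of the 43 in CD45.1 TAµ against CD45.1 µ, where 0.0750% of all genes were called. It called 0 in CD45.2 µ against CD45.1 µ (0.0300% of genes) and 0 in CD45.1 TAµ against CD45.2 µ (0.345%). An unadjusted p under 0.05 was reached by 2, 2 and 1 of the 43, that is 4.65%, 4.65% and 2.33%, where 5.36%, 8.79% and 6.75% of all genes reached it. DESeq2 and limma-voom also called 0 in each, with 1, 3 and 1 genes and 0, 2 and 1 genes under that unadjusted p. The 3 comparisons share libraries. Median log2 fold changes were 0.0032, -0.064 and 0.23 for the 43 genes and 0.057, -0.0074 and 0.098 for all genes.

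Mki67 was at 83.7 ± 19.6 CPM in CD45.1 TAµ and 138 ± 30.0 CPM in CD45.1 µ (SD, n = 3 routes). Its highest TAµ library (106 CPM) was just under the lowest CD45.1 µ library (108 CPM). The log2 fold change of -0.62 ± 0.29 (SE) did not pass (edgeR adjusted p = 0.874), and with 1 library left out it ran from -0.86 to -0.35. Kif11 was at -1.31 ± 0.61 in the same comparison (edgeR adjusted p = 0.874) and at -1.35 ± 0.60 in CD45.2 µ against CD45.1 µ (0.542). Its 60.5 CPM in ICV CD45.1 µ stood apart from 17.7 and 20.7 CPM by IV and ITL, and without ICV CD45.1 µ and IV CD45.2 µ the second value was 0.30. Bub1b was at -1.66 ± 0.78 in CD45.2 µ against CD45.1 µ (edgeR adjusted p = 0.566), with 17.8, 16.7 and 17 CPM in CD45.1 µ and 0.464, 4.98 and 13.3 CPM in CD45.2 µ. Those CD45.2 µ values are all lower but spread widely by route.

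Cenpf in CD45.1 TAµ against CD45.2 µ was at -1.34 ± 0.54 (edgeR adjusted p = 0.596). The CD45.2 µ libraries had 68.4 (IV), 9.87 (ICV) and 17.7 CPM (ITL) and the TAµ libraries 16.8, 5.02 and 12.4 CPM, so it was lower in TAµ by 3 of 3 routes while the groups overlapped. The members with the largest fitted changes had few reads. Ccnb1 was at 2.57 ± 1.89 in TAµ and 2.34 ± 2.01 in CD45.2 µ, each against CD45.1 µ (edgeR adjusted p = 0.878 and 0.730). Gins2, a subunit of the replicative helicase, was at -2.26 ± 2.58 in CD45.2 µ against CD45.1 µ and 3.56 ± 2.14 in TAµ against CD45.2 µ (edgeR adjusted p = 0.796 and 0.839). Gins2 had 0 counts in 3 of the 9 libraries and at most 2.93 CPM in any.

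Between routes the model called 0 of the 43 genes in ICV against IV, where 0% of all genes were called, 0 in ITL against IV (0.217%) and 0 in ITL against ICV (0%). An unadjusted p under 0.05 was reached by 3, 0 and 1 of them (6.98%, 0% and 2.33%, beside 9.22%, 5.35% and 3.79% of all genes). DESeq2 called 0 in each (5, 1 and 3 under that p), as did limma-voom (4, 1 and 3). Median log2 fold changes were -0.24, 0.014 and 0.48 for the 43 genes and 0.065, 0.049 and -0.022 for all genes. These route comparisons share libraries as well, and population is balanced within them.

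The 3 genes with the smallest p in ICV against IV were all lower by ICV. Their groups did not overlap, which choosing genes by p favours, and the share of all genes without overlap was not counted. Cenpf had 31.3, 16.8 and 68.4 CPM by IV in CD45.1 µ, TAµ and CD45.2 µ, and 12.2, 5.02 and 9.87 CPM by ICV. Its log2 fold change was -1.96 ± 0.52 (edgeR adjusted p = 0.297), and it was lower by ICV in 3 of 3 populations. Rrm2 had 26.7, 9.80 and 22.6 CPM by IV and 0, 1.76 and 5.83 CPM by ICV (-2.63 ± 0.76, edgeR adjusted p = 0.336). Rrm2 was at 15.8, 8.30 and 17.1 CPM by ITL, which did not overlap ICV either (2.14 ± 0.86 for ITL against ICV, edgeR adjusted p = 0.998). Top2a was at 65.9 ± 13.7 CPM by IV and 31.4 ± 7.25 CPM by ICV (SD, n = 3 populations), a log2 fold change of -0.97 ± 0.36 (edgeR adjusted p = 0.466). Mki67, by contrast, was at 114 ± 12.2 CPM by IV and 102 ± 57.6 CPM by ICV, so the routes overlapped for it. Markers of other cells were also fitted differently by ICV: all 9 neutrophil markers were lower (median log2 fold change -1.43, none with an unadjusted p under 0.05), 7 of 8 macrophage markers were higher (4 under that p) and 8 of 9 oligodendrocyte lineage markers were higher (3 under that p). In CD45.1 µ, TAµ and CD45.2 µ, neutrophil sums were 13861, 3663 and 2.86 CPM by IV and 1226, 834 and 2900 CPM by ICV. Oligodendrocyte lineage sums were 126, 97.4 and 415 CPM by IV and 215, 1065 and 232 CPM by ICV. Macrophage sums were 29138, 21317 and 7693 CPM by IV and 22113, 31830 and 23179 CPM by ICV. The neutrophil and oligodendrocyte sums thus went the other way in CD45.2 µ, and the macrophage sum in CD45.1 µ. None of these markers was called, and their part in the result was not tested.

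The ICV libraries were not alike. Mitosis genes summed to 238 CPM in ICV CD45.1 TAµ and 226 CPM in ICV CD45.2 µ but to 462 CPM in ICV CD45.1 µ, beside 324 to 468 CPM by IV and ITL. The low pair also had the pre-ribosomal RNA row and a small RNA row, together called rRNA rows here, at 25.1% and 21.8% of counts. ITL CD45.1 TAµ had 23.5%. With these rows taken out of the totals the same pair was still lowest of the 9, at 317 and 289 CPM against 424 to 555 CPM. The largest fitted route changes again belonged to genes with few or no reads in some libraries: the mitotic entry gene Cdca3 at -2.96 ± 1.44 in ICV against IV and 2.69 ± 1.66 in ITL against ICV, Ube2c at 1.95 ± 1.30 in ICV against IV, Nusap1 at 2.07 ± 1.16 and Gins2 at -1.26 ± 1.93 in ITL against IV, and Cdca8 at -1.28 ± 1.04 in ITL against ICV. Their edgeR adjusted p-values ran from 0.550 to 0.998.

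**Figure D4:**
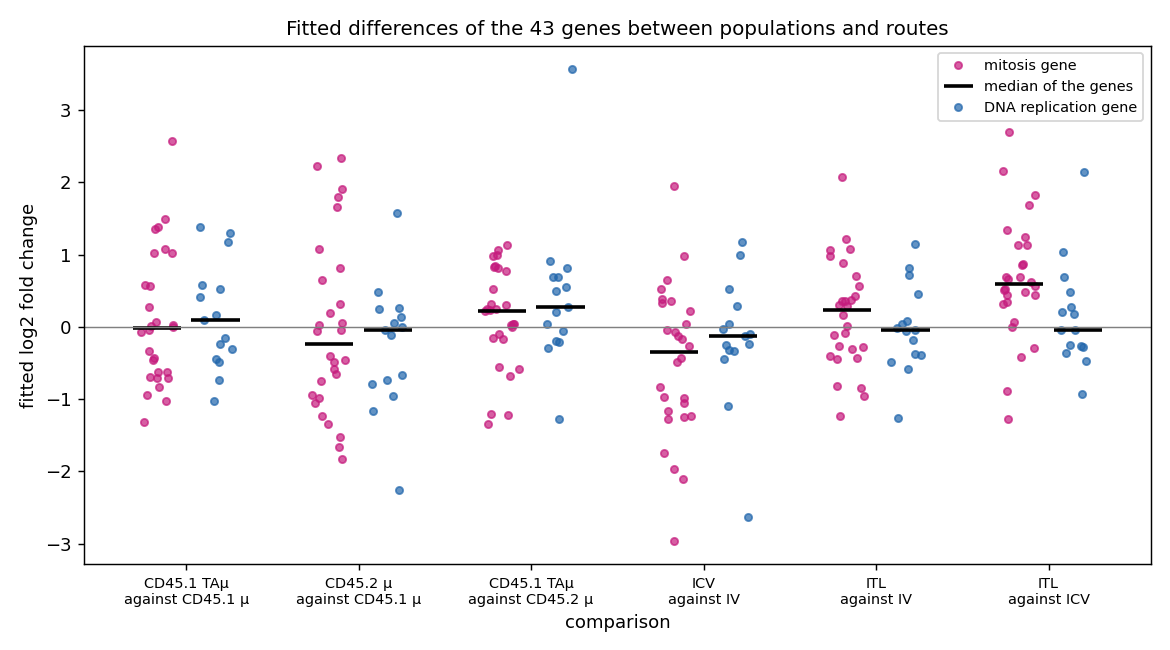
Each point is the fitted log2 fold change of 1 gene in 1 of 6 comparisons, mitosis genes in pink and replication genes in blue, and black bars are group medians. Points lie on both sides of 0 in every comparison, and none of the 43 genes passed the edgeR test in any.

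Within a population the levels varied by route. The median range of mitosis genes over the 3 routes was 1.96 log2 units in CD45.1 µ, 1.45 in CD45.1 TAµ and 2.23 in CD45.2 µ, beside 1.13, 0.87 and 1.27 for all genes. For replication genes it was 1.41, 0.76 and 0.93, above that of all genes in CD45.1 µ and below it in the other populations. These differences in spread were not tested. Levels of mitosis genes followed each other weakly across libraries. Over 378 gene pairs the median Spearman correlation was 0.31 across the 11 libraries and 0.17 across the 9. Replication genes gave 0.15 and 0.00 over 105 pairs. Points of 1 library share its depth and zero counts.

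The PBS library was set beside ICV CD45.2 µ, the library of the same route and allele. In PBS 42 of the 43 genes had the higher level, as did 8680 of 14766 genes in all. At least 2-fold higher were 21 of the 43, where 12.2% of all genes were that much higher. The median log2 difference was 0.92 for mitosis genes, 0.54 for replication genes and 0.11 for all genes. Mki67 had 123 CPM in PBS and 69.3 CPM in ICV CD45.2 µ, a ratio of 1.77 (1.66 to 1.89). Top2a had 61.8 and 23.4 CPM, a ratio of 2.64 (2.38 to 2.94), and Bub1 11.1 and 0.611 CPM, a ratio of 18.2 (10.4 to 34.7). The replication genes Mcm5 (1.11, 0.947 to 1.31) and Tyms (1.09, 0.809 to 1.46) differed by less than counting error. Tacc3, a spindle gene, was the one lower in PBS (9.33 against 10 CPM), and a second joined it under each of 3 other scalings.

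ICV CD45.2 µ had the lowest mitosis sum of the 9 libraries, and PBS lay inside the range of the 9 for 39 of 43 genes (93.0% of all genes did). Above that range were Cenpe (19.8 CPM), Bub1b (19.0 CPM), Tpx2 (14.1 CPM) and Tk1 (16.7 CPM). Markers of progenitors and primary granules moved with the difference: their sum was 200 CPM in PBS and 43.1 CPM in ICV CD45.2 µ. Of these, the granule enzyme genes Mpo (76 CPM against 0), Elane (32.1 against 0.376) and Prtn3 (18.9 against 0.329) and the progenitor factor gene Myb (6.99 against 0.094) were higher in PBS. Other lists were lower in PBS. Astrocyte markers summed to 48.5 CPM in PBS and 228 CPM in ICV CD45.2 µ, and oligodendrocyte lineage markers to 86.4 and 232 CPM. Endothelial and mural markers summed to 34.9 and 62.7 CPM, and microglial markers to 11288 and 15618 CPM. Macrophage markers (23445 and 23179 CPM) and neutrophil markers (2712 and 2900 CPM) were close. The rRNA rows took 13.6% and 21.8% of counts. The part of these differences in the result was not tested. There is 1 library on each side, so the difference has no replicate check.

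Other genes of the cycle came from 4 lists. Beside their counts stand those of all 14766 genes, 931 (6.31%) below the range of the 9 and 831 above it. In CTR, 11 of 37 other mitosis genes lay below the range of the 9 (median log2 difference -1.64), among them the condensin gene Smc4 (19.5 CPM against 40.5 to 114), the nuclear lamin gene Lmnb1 (17.8 against 26.3 to 164) and Incenp of the chromosomal passenger complex (12.4 against 36.5 to 67.9). Of 34 other replication genes 2 did (median -0.68), a share like that of all genes: the DNA methyltransferase gene Dnmt1 (46.4 against 56.4 to 105) and Brca1 of DNA repair (1.07 against 1.84 to 9.13). Of 22 genes of G1 cyclins, their kinases, RB and E2F, 3 did: the D-type cyclin genes Ccnd1 (108 CPM against 168 to 323) and Ccnd2 (8.11 against 23.7 to 96.0), and Rb1 (152 against 162 to 291). Myc, a growth factor-induced regulator, was above it at 131 CPM against 41.2 to 120. Of 16 inhibitor and arrest genes 1 was below (Ccng1), again a share like that of all genes, and 3 were above (Cdkn1c, Ccng2 and Gadd45b, the last at 79.0 CPM against 11.5 to 64.2).

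From these lists 22 genes of G1, RB and E2F, 15 inhibitor and arrest genes, 37 other mitosis genes and 34 other replication genes were tested. Just 1 passed between populations, in CD45.1 TAµ against CD45.2 µ, where 0.345% of all genes were called. Cdkn1a, whose protein p21 blocks cyclin-dependent kinases, was at 406 (IV), 118 (ICV) and 361 CPM (ITL) in CD45.2 µ and at 87.5, 31.9 and 46.0 CPM in CD45.1 TAµ. The groups did not overlap, which choosing a gene by p favours, and the share of all genes without overlap was not counted. Cdkn1a was lower in TAµ by 3 of 3 routes, which that choice favours too. It fell in TAµ by 2.27 ± 0.38 (SE) on the log2 scale (edgeR adjusted p = 0.00818; 0.0408 with edgeR's legacy fit, 1.13e-06 with DESeq2, 0.0358 with limma-voom). The call was lost without IV CD45.1 TAµ (-2.65, edgeR adjusted p = 0.166), without IV CD45.2 µ (-1.94, 0.166) and without ITL CD45.1 TAµ (-2.07, 0.102). CD45.1 µ had 83.4, 165 and 159 CPM, which overlapped both other populations, and TAµ against CD45.1 µ did not pass with edgeR (-1.28 ± 0.38, adjusted p = 0.677) but did with DESeq2 (0.0444). PBS had 132 CPM and CTR 55.7 CPM.

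Mdm2 and Ccng1, which like Cdkn1a are targets of p53, were at -0.91 ± 0.33 and -1.10 ± 0.39 in TAµ against CD45.2 µ and did not pass (edgeR adjusted p = 0.487 and 0.466). Markers of several cell types moved with this comparison. Of 10 microglial markers 8 were fitted lower in TAµ and 2 fell, the transcription factor gene Sall1 (log2 fold change -6.27 ± 0.49, edgeR adjusted p = 3.60e-06) and the purine receptor gene P2ry12 (-1.44 ± 0.29, 0.0427). All 8 macrophage markers were fitted higher and the mannose receptor gene Mrc1 rose (1.49 ± 0.29, edgeR adjusted p = 0.0303). Of 6 astrocyte markers all were fitted lower and the glutamate transporter gene Slc1a3 fell (-2.57 ± 0.53, edgeR adjusted p = 0.0473), with list sums of 613, 228 and 496 CPM in CD45.2 µ and 59, 238 and 155 CPM in TAµ by IV, ICV and ITL. Among the 8 tested progenitor and granule markers Mpo rose (8.77 ± 1.43, edgeR adjusted p = 0.00871). The 8 endothelial and mural markers, all fitted lower and none called, summed in CD45.2 µ to 349 (IV), 62.7 (ICV) and 234 CPM (ITL), and to 29.3, 281 and 76.8 CPM in CD45.1 TAµ. Xist was at 5273 ± 1190 CPM in CD45.2 µ and 164 ± 230 CPM in TAµ (SD, n = 3), so population, allele and the sex of the cells cannot be told apart. The part of other cell types in the Cdkn1a difference was not tested.

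No other gene of the 4 lists passed the edgeR test in any of the 6 comparisons. DESeq2 called Lmnb1 in ICV against IV (adjusted p = 0.0062), which edgeR placed at -1.57 ± 0.34 (adjusted p = 0.153). Its levels were 164, 113 and 109 CPM by IV and 34.9, 26.3 and 57.3 CPM by ICV in CD45.1 µ, TAµ and CD45.2 µ. They did not overlap, which choosing the gene by p favours here as well. DESeq2 also called the replication checkpoint gene Clspn in CD45.2 µ against CD45.1 µ and in ICV against IV (adjusted p = 0.0156 and 0.0244), where edgeR gave 0.471 and 0.342. Limma-voom called none of these besides Cdkn1a.

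**Figure D5:**
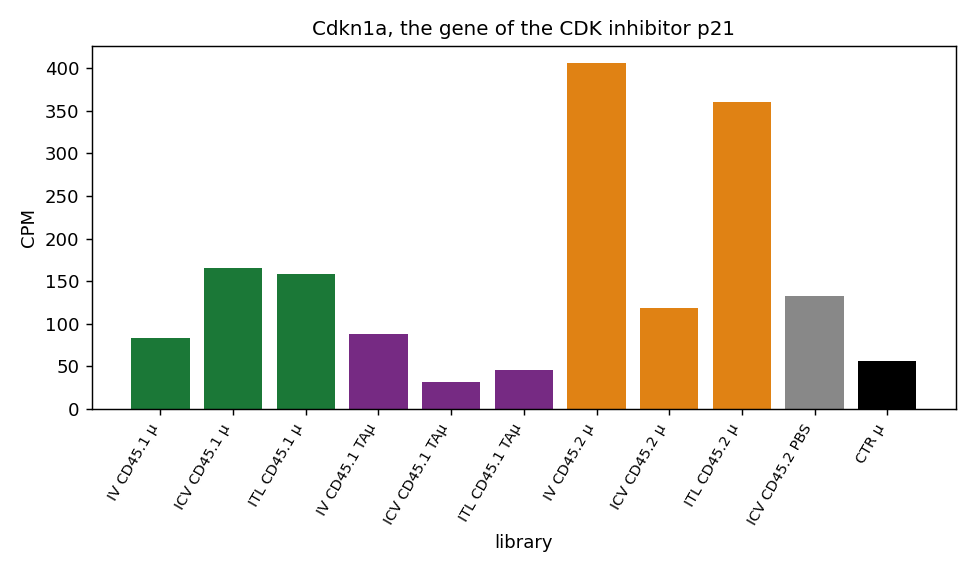
Bars give the CPM of Cdkn1a in each of the 11 libraries, coloured by population. The 3 orange CD45.2 µ bars (118 to 406 CPM) are all above the 3 purple CD45.1 TAµ bars (31.9 to 87.5 CPM).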

How the data were processed

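The authors deposited whole-number counts per gene symbol, not normalized, in 1 table of 24411 symbols per library. Per the submitters' processing notes reads were aligned with STAR to a mouse genome named mm39 and GRCm39, and the sources used here do not give the annotation, the strand setting or any filter. Libraries were grouped by the route and population in their labels, and 0 columns were unassigned. No pair of libraries agreed within sampling noise (lowest chi-square per degree of freedom 40.7 over 55 pairs).

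The 9 libraries were fitted with edgeR 4.0.16 (R 4.3.3): filter at a minimum count of 10 and total of 15, TMM, additive route and population, 4 residual degrees of freedom, common biological coefficient of variation 0.842, quasi-likelihood F test, Benjamini-Hochberg adjustment at 0.05 over 13339 genes. All 43 members passed the filter. DESeq2 1.42.0 and limma-voom (limma 3.58.1) were alternatives. CTR and PBS were compared as CPM over 14766 genes, with exact 95% intervals. Reads carry no stated molecular identifiers, so intervals and limits of 0 counts (3 counts) cover counting error only. Simulated data with known changes were run through the fit. The share of changes it recovered is not reported here, so a gene that was not called cannot be taken as equal between groups.

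The members, the lists and the marker sets were chosen with earlier results of these data known. Per-library values follow a rule: the highest 3 genes by mean CPM of each role class, Mki67, Top2a, Ccnb1, Cdk1, Pcna, Mcm6, members past the threshold and those with the largest fitted change each way. From other lists up to 5 genes are named, those past the threshold or else the highest in level. Chosen after their values were seen were the edgeR version of the fit (the newer quasi-likelihood fit took the place of the legacy one once both had been run; counts of both are given), the pooling of role classes into mitosis and replication, the promoter words and promoters, the range without the 2 libraries with fewest genes, and genes named outside the rule: those with an unadjusted p under 0.05 (such as Rrm2 in the routes), those outside the range of the 9 libraries in CTR or PBS, those called by DESeq2, and Mdm2, Tacc3, Stmn1, Plk1, Mcm5 and Tyms.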

Additional observations from a re-analysis of the deposited data

How the results depend on the processing

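Under the edgeR model and 19 alternatives, 0 of the 43 genes, or of those a stricter filter kept, were called in any of the 6 comparisons. Counts over all genes moved far more. For TAµ against CD45.1 µ, 10 genes became 23 with no filter, 2 with a filter of 10 CPM in 3 libraries, 217 with DESeq2, 0 with limma-voom, 2 with no block, 24 with all 11 libraries, 3 with the legacy fit (a choice added after the data were seen) and 0 to 24 with 1 library left out. Comparing CD45.2 µ with CD45.1 µ, 4 became 277 with DESeq2, 0 with limma-voom, the stricter filter, no block or the legacy fit, and 0 to 29 with 1 library left out. For TAµ against CD45.2 µ, 46 became 25 with the stricter filter, 193 with DESeq2, 25 with limma-voom, 29 with no block, 22 with the legacy fit and 5 to 159 with 1 library left out. For ICV against IV, 0 became 8 with no filter, 147 with DESeq2, 5 with limma-voom, 6 with all 11 libraries and 0 to 28 with 1 library left out. For ITL against IV, 29 became 12 with the stricter filter, 150 with DESeq2, 13 with no block, 10 with the legacy fit, 49 without the 2 libraries with fewest genes and 0 to 35 with 1 library left out. For ITL against ICV, 0 became 2 with no filter, 32 with DESeq2, 2 with all 11 libraries, 2 without the 2 libraries with fewest genes and 0 to 3 with 1 library left out.

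Reversed values were Kif11 in CD45.2 µ against CD45.1 µ (0.30 without those 2 libraries), Gins2 in the same comparison (0.065 with DESeq2, 4.42 without IV CD45.1 µ, and -4.15 to 4.42 over the libraries left out) and in ITL against IV (0.052 without IV CD45.1 µ, -3.92 to 0.052 over the libraries), and Ube2c in ICV against IV (-0.021 without ICV CD45.1 µ, -0.021 to 5.02 over the libraries, -1.36 without those 2 libraries). The cause was not tested. The members below the range in CTR were 13 to 20 with 1 library left out and 27 without the 2, by construction since fewer libraries set the range. The count lower in PBS was 2 in place of 1 with TMM, with DESeq2 size factors and with rRNA rows left out. Alternatives were run for fold changes of the genes with the largest fitted change, those with an unadjusted p under 0.05 and Cdkn1a, and were not run for those of other genes. No paired analysis was possible because no label numbers the animals or replicates; libraries were matched by route and population through the additive model alone.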
